A study of Mus musculus with 899 samples.

Results

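Plasma collected 5 months after whole-thorax irradiation was compared between C57Bl/6 mice that were sampled again at month 6 and those that were not. The irradiated mice were taken from the sample titles, and a mouse was placed in the first group if its number also appears with the time point M6. Of 899 plasma samples in the series, 21 were irradiated month 5 samples of this strain. In 8 of them the mouse also has a month 6 sample (4 females and 4 males), and in 13 it has none (5 females and 8 males). The 16 sham mice of the same strain, 8 of each sex, were sampled at month 5 and again at month 6 and served as the reference.

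The absence of a month 6 sample is not the same as death. A mouse may have died, may have met the criteria for early euthanasia, or its plasma or library may have been rejected, since hemolyzed plasma, libraries with excess adapter dimer and shallow sequencing runs were left out of the study, and the labels do not say which. All mice were young adults when the study began. The irradiated mice received a single local X-ray exposure of the thorax, at a dose chosen from lethality curves so that most mice of the strain would not survive to the end of the study, and the reference mice were sham irradiated. A mouse number in the title links samples of 1 animal, and a letter there marks the bleeding subset, with early samples at day 2 in subset A and at day 5 in subset B. Subset A holds 4 of the 8 mice with a month 6 sample and 8 of the 13 without one. In the latter group 3 mice, numbers 1097, 1098 and 1099, have no sample from before irradiation.

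MicroRNAs (miRNA) are short RNAs that guide Argonaute proteins to matching sites in messenger RNA, mainly through the seed, bases 2 to 8 of the mature strand, and so lower the output of their targets. In plasma they are carried in protein complexes, lipoproteins and vesicles, and much of the plasma pool comes from blood cells. Some are largely made by 1 tissue, so that miR-122 in plasma is read as a sign of release from hepatocytes and the miR-1 and miR-133 families as a sign of release from muscle. The miR-34 family is induced by p53 after DNA damage.

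The mature sequences of the miRNA on which the comparisons turn are given 5′ to 3′, with the seed in capitals, as in RefSeq for GRCm38.p6. The first group is 5 of the 8 miRNA named for the smallest p-values among those higher in mice without a month 6 sample.
miR-365-3p: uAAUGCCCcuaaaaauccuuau
miR-148a-3p: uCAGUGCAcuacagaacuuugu
miR-135a-5p: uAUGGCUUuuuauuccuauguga
miR-92b-3p: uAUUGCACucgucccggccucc
miR-22-3p: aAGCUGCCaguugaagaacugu

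The second group is 5 of the 8 named for the smallest p-values among those lower in mice without a month 6 sample, with miR-301a-3p shown for its narrow ranges. The miR-142a strands are the arms of 1 hairpin.
miR-142a-5p: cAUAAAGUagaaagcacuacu
miR-142a-3p: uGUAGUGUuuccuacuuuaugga
miR-29b-3p: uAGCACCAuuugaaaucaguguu
miR-181a-5p: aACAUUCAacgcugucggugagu
miR-301a-3p: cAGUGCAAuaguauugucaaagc

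The third group is 7 of the 16 that passed an adjusted p of 0.05 in edgeR between mice without a month 6 sample and sham mice.
miR-335-5p: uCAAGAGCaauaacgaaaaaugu
miR-802-5p: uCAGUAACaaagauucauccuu
miR-192-5p: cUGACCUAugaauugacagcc
miR-34a-5p: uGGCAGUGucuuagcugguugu
miR-34c-3p: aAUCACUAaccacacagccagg
miR-99a-5p: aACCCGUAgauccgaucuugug
miR-99b-5p: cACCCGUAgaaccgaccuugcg

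These 17 sequences carried 16 seeds, since miR-99a-5p and miR-99b-5p share theirs with each other. On GRCm38, miR-335-5p lies at chr6:30741314-30741336 on the plus strand in an intron of Mest, an imprinted gene. miR-301a-3p lies at chr11:87113054-87113076 on the plus strand in an intron of Ska2. miR-142a-5p and miR-142a-3p lie at chr11:87756867-87756887 and chr11:87756903-87756925 on the plus strand in an intron of the noncoding gene Mir142hg. miR-22-3p lies at chr11:75463772-75463793 on the plus strand in an exon of its noncoding host gene Mir22hg, where an exon of Tlcd2 is also annotated. No annotated host gene on the same strand was found for miR-148a-3p (chr6:51269829-51269850, minus strand), miR-802-5p (chr16:93369737-93369758, plus strand), miR-192-5p (chr19:6264857-6264877, plus strand) or miR-34a-5p (chr4:150068473-150068494, plus strand). miR-365-3p has a copy on chromosome 11 and a copy on chromosome 16 with the same mature sequence, so its reads could not be assigned to either.

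Total miRNA counts per library ranged from 914022 to 2528130 in mice with a month 6 sample, from 937135 to 2825231 in mice without one, and from 994453 to 2483706 in sham mice, with medians of 1578456, 1348347 and 1578228.5. miR-16-5p, a red cell and leukocyte miRNA, was the most abundant miRNA in each of the libraries. It took 52.7% ± 7.42 (SD, n = 8) of the reads in mice with a month 6 sample, 45.8% ± 7.57 (SD, n = 13) in mice without one and 44.4% ± 8.04 (SD, n = 16) in sham mice. The difference of -6.88 percentage points between the irradiated groups had p = 0.0507 in a two-sided exact permutation test, and 0.253 after adjustment over the 5 library measures tested. Levels are given as log2 CPM (counts scaled to a common library size), normalized between libraries by the trimmed mean of M-values, so a level is relative to the rest of the library. The log2 ratio of miR-451a to miR-23a-3p counts, a common index of red cell RNA in plasma, was -0.68 ± 0.85 (SD, n = 8) and -0.87 ± 0.83 (SD, n = 13) in the irradiated groups, a difference with an adjusted p of 0.889 in the same exact test, and -1.19 ± 0.56 (SD, n = 16) in sham mice.

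The main question was whether month 5 plasma differed between irradiated mice with and without a month 6 sample. None of the 299 miRNA tested passed an adjusted p of 0.05 in edgeR's quasi-likelihood test (0 called, 0%), and the smallest adjusted p was 0.393. At an unadjusted p under 0.05 there were 33 miRNA (11%), of which 23 were higher (7.69%) and 10 lower (3.34%) in mice without a month 6 sample. The number called was also 0 with DESeq2 and with limma-voom, where 38 and 39 miRNA had an unadjusted p under 0.05. The levels of the 2 irradiated groups overlapped for every one of the 299 miRNA (0 without overlap, 0%). The fitted log2 fold changes, mice without minus mice with a month 6 sample, ran from -1.58 to 1.70 with a median of 0.03.

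The depth and the number of mice bound what could have been missed. The median distance from a fitted log2 fold change to the end of its 95% interval was 0.63, and 0.48 for the 135 miRNA with a mean level of at least 6 log2 CPM. The interval lay within a 2-fold difference in either direction for 157 of the 299 miRNA (52.5%), and for 104 of these 135 (77%). For the rest, a 2-fold difference in one direction at least was within the interval.

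**Figure D1:**
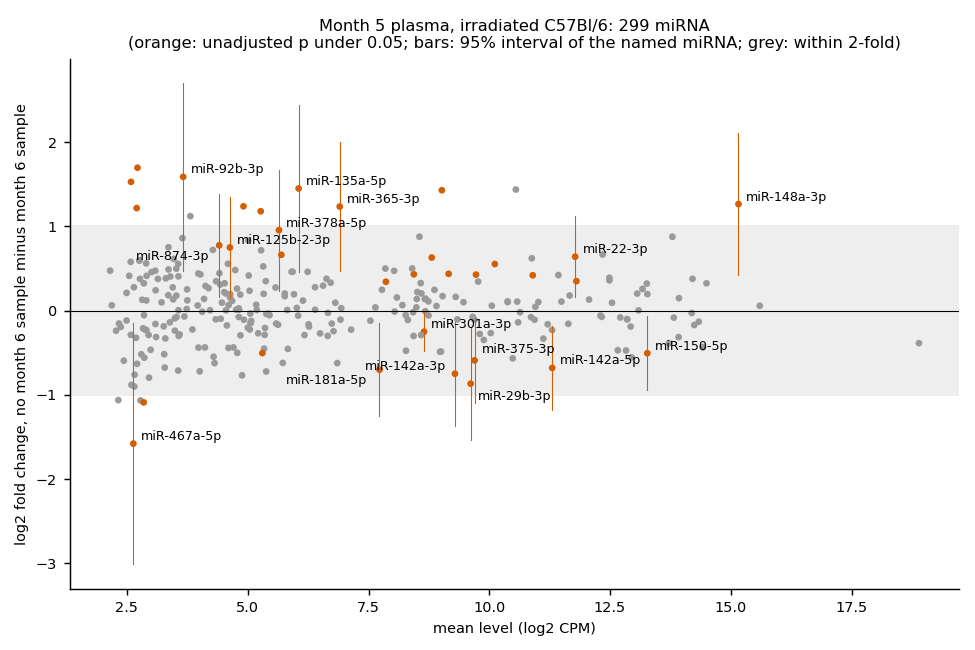
Fitted log2 fold change at month 5, irradiated mice without minus irradiated mice with a month 6 sample, against the mean level in log2 CPM for the 299 miRNA tested, with the 95% interval of the 8 miRNA with the smallest p in each direction. None passed an adjusted p of 0.05, and the fitted values of all 299 lie between -1.58 and 1.70.

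The 8 miRNA with the smallest p among those higher in mice without a month 6 sample were miR-365-3p, miR-148a-3p, miR-135a-5p, miR-92b-3p, miR-378a-5p, miR-22-3p, miR-874-3p and miR-125b-2-3p. They are given as values, since each had an adjusted p of 0.393. miR-365-3p ran from 5.29 to 6.56 log2 CPM (median 6.07) in the 8 mice with a month 6 sample and from 5.74 to 9.02 (median 7.07) in the 13 without one, and from 4.25 to 8.37 (median 6.47) in sham mice. Of the 13 mice, 9 lay above the highest of the 8. Its fitted log2 fold change was 1.24 (95% interval 0.47 to 2.00, edgeR p = 0.00221). Both irradiated groups stayed within the sham range but for 1 mouse without a month 6 sample, mouse 1008, at 9.02.

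miR-148a-3p, which is abundant in liver and represses lipid uptake genes there, ran from 13.18 to 14.79 log2 CPM (median 14.02) with and from 14.17 to 17.06 (median 14.85) without a month 6 sample, with sham mice at 13.26 to 17.04 (median 14.57). All 13 mice without a month 6 sample lay above the median of the 8. The fitted log2 fold change between the irradiated groups was 1.26 (95% interval 0.42 to 2.11). Against sham mice it was -1.06 (adjusted p = 0.138) in mice with a month 6 sample and 0.21 (adjusted p = 0.764) in mice without one, so that the values of the mice without a month 6 sample were the nearer to sham.

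miR-135a-5p gave a similar order. Its level was 4.85 ± 0.69 log2 CPM (SD, n = 8) with a month 6 sample, 5.84 ± 1.30 (SD, n = 13) without one and 5.76 ± 1.04 (SD, n = 16) in sham mice, and the fitted log2 fold change between the irradiated groups was 1.45 (95% interval 0.46 to 2.44). miR-92b-3p, whose seed is that of the miR-25 and miR-92a family, was close to the lower end of what was measured, at 2.78 ± 0.71 log2 CPM (SD, n = 8) and 3.57 ± 1.36 (SD, n = 13), with a fitted log2 fold change of 1.59 (95% interval 0.47 to 2.70). Mouse 1008 had the highest value of the 13 for miR-365-3p, miR-148a-3p, miR-135a-5p and miR-378a-5p, and without it their log2 fold changes were 0.98, 1.06, 1.15 and 0.65. Mouse 1007 had the highest miR-92b-3p, 6.85 log2 CPM, and without it that log2 fold change was 0.75.

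The remaining 4 had fitted log2 fold changes of 0.96 for miR-378a-5p, 0.64 for miR-22-3p, 0.78 for miR-874-3p and 0.75 for miR-125b-2-3p. Without mouse 1098 that of miR-22-3p was 0.35. For miR-874-3p, 10 of the 13 mice without a month 6 sample lay above the highest of the 8, and 1 lay below the lowest.

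The 8 with the smallest p among those lower in mice without a month 6 sample were miR-142a-5p, miR-29b-3p, miR-181a-5p, miR-142a-3p, miR-375-3p, miR-150-5p, miR-467a-5p and miR-301a-3p, again each with an adjusted p of 0.393. Several are known from leukocytes. Both arms of miR-142a, which is largely restricted to blood cells, pointed the same way. miR-142a-5p ran from 10.58 to 12.05 log2 CPM (median 11.58) with a month 6 sample and from 9.34 to 11.89 (median 10.60) without one, with sham mice at 10.55 to 12.35 (median 11.35). Of the 13 mice, 6 lay below the lowest of the 8. The fitted log2 fold change was -0.68 (95% interval -1.18 to -0.18) for miR-142a-5p and -0.75 (95% interval -1.36 to -0.13) for miR-142a-3p.

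miR-181a-5p, a regulator of lymphocyte development, was 7.73 ± 0.69 log2 CPM (SD, n = 8) with and 7.03 ± 0.64 (SD, n = 13) without a month 6 sample, with sham mice at 7.87 ± 0.66 (SD, n = 16), and the fitted log2 fold change was -0.70 (95% interval -1.26 to -0.15). It was the only one of these 8 that also passed the test against sham mice in the group without a month 6 sample, at -0.87 with an adjusted p of 0.0189. miR-29b-3p, a repressor of collagen genes, was 9.55 ± 1.01 log2 CPM (SD, n = 8) and 8.79 ± 0.82 (SD, n = 13), with a fitted log2 fold change of -0.87 (95% interval -1.54 to -0.19). miR-150-5p, a miRNA of mature lymphocytes, ran from 13.28 to 14.13 log2 CPM (median 13.75) with and from 12.06 to 14.07 (median 13.07) without a month 6 sample, and from 12.32 to 13.92 (median 12.92) in sham mice. Of the 13 mice without a month 6 sample, 8 lay below the lowest of the 8 with one. Its fitted log2 fold change between the irradiated groups was -0.50 (95% interval -0.95 to -0.06), and against sham mice it was 0.69 (adjusted p = 0.0797) with and 0.19 (adjusted p = 0.633) without a month 6 sample.

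miR-301a-3p had small differences and an even smaller spread. It ran from 8.78 to 9.09 log2 CPM (median 8.90) in mice with a month 6 sample, from 8.31 to 8.88 (median 8.61) in mice without one, and from 8.26 to 8.76 (median 8.49) in sham mice. All 8 mice with a month 6 sample lay above the highest sham mouse, which made it the 1 miRNA of 299 (0.334%) for which an irradiated group did not overlap the sham group. None of the 13 mice without a month 6 sample lay above the median of the 8. The fitted log2 fold changes were -0.25 (95% interval -0.48 to -0.02) between the irradiated groups and 0.37 (95% interval 0.15 to 0.59, adjusted p = 0.0735) for mice with a month 6 sample against sham.

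**Figure D2:**
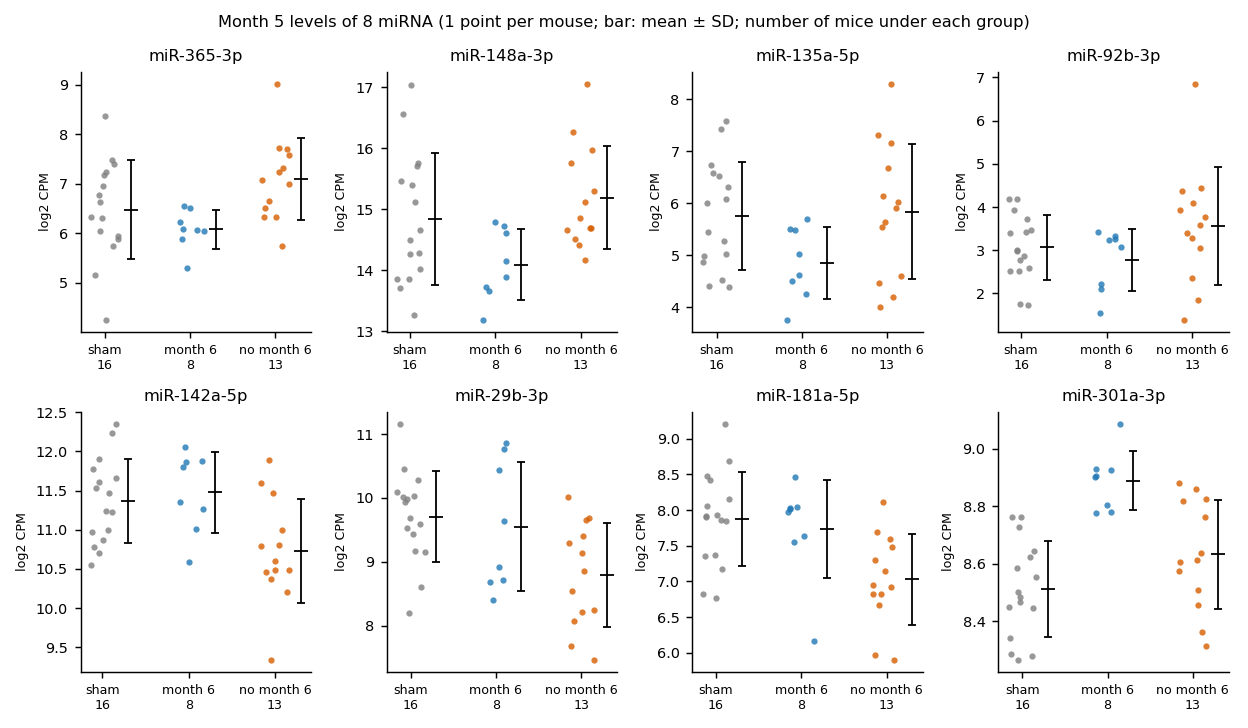
Month 5 levels in log2 CPM of 4 miRNA with small p-values among those higher and 4 among those lower in irradiated mice without a month 6 sample, with 1 point per mouse and the mean ± SD of each group. The irradiated groups overlap in every panel, and for miR-301a-3p the 8 mice with a month 6 sample all lie above the highest sham mouse.

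Each irradiated group was then set against the same 16 sham mice. The contrasts share these mice, so their values are given side by side. In mice without a month 6 sample 16 of 299 miRNA passed an adjusted p of 0.05 (5.35%), 12 higher (4.01%) and 4 lower (1.34%) than sham. In mice with a month 6 sample 1 passed (0.334%), the liver miRNA miR-122-5p, which was higher. At an unadjusted p under 0.05 there were 66 (22.1%) in mice without a month 6 sample, 35 higher (11.7%) and 31 lower (10.4%), and 55 (18.4%) in mice with one, 28 higher (9.36%) and 27 lower (9.03%). The groups differ in size, and which of them had the more calls changed with the processing. In mice without and with a month 6 sample, DESeq2 called 16 and 25, and limma-voom 8 and 11. With months 1 to 6 in the fit and the mouse as a block, limma-voom called 13 and 11. Without the 3 mice that have no sample from before irradiation, edgeR called 6 and 10. Within the bleeding subsets the calls were 3 and 0 in subset A and 5 and 13 in subset B, in males 6 and 3, and in females 10 and 0. The 3 mice with no sample from before irradiation, 1097, 1098 and 1099, are all females of subset A. They are 3 of the 5 females without a month 6 sample, and the only females of subset A in that group. What is particular to these mice thus cannot be told apart from what is particular to females of subset A in that group.

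miR-122-5p, the dominant hepatocyte miRNA, had the largest log2 fold change over sham of the 299 miRNA in both irradiated groups. It ran from 8.95 to 12.12 log2 CPM (median 11.06) in sham mice, from 11.82 to 15.31 (median 13.42) in mice with a month 6 sample and from 10.30 to 17.28 (median 13.93) in mice without one. It was above the highest sham mouse in 7 of the 8 and in 11 of the 13. The log2 fold change over sham was 2.75 (95% interval 1.71 to 3.79, adjusted p = 0.00139) in mice with and 3.62 (95% interval 2.63 to 4.62, adjusted p = 2.55e-06) in mice without a month 6 sample, and the difference between the irradiated groups was 0.88 (95% interval -0.27 to 2.03, adjusted p = 0.532). Without mouse 1098, the mouse at 17.28, that difference was 0.17.

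The 13 mice without a month 6 sample also had higher miR-802-5p, a liver miRNA linked to glucose metabolism, and higher miR-192-5p, miR-194-5p and miR-101b-3p. miR-802-5p ran from 1.08 to 4.72 log2 CPM (median 3.19) in sham mice, from 3.81 to 5.45 (median 4.56) with and from 2.64 to 8.73 (median 4.95) without a month 6 sample. Its log2 fold change over sham was 1.60 (adjusted p = 0.0833) in mice with and 2.84 (adjusted p = 3.33e-05) in mice without a month 6 sample. For miR-192-5p, made in liver, gut and kidney, these values were 1.23 (adjusted p = 0.0701) and 1.55 (adjusted p = 0.000764), with 6 of the 8 and 8 of the 13 mice above the highest sham mouse.

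Mouse 1098, a female without a month 6 sample or a sample from before irradiation, had the highest value of miR-122-5p, miR-802-5p, miR-192-5p, miR-194-5p, miR-101b-3p, miR-34a-5p, miR-30a-5p and miR-22-3p in its group. Without it 10 miRNA differed from sham in the remaining 12 mice, and 6 in the 8 mice with a month 6 sample. miR-122-5p was then at 2.92 over sham (adjusted p = 1.97e-06), miR-802-5p at 1.80 (adjusted p = 0.000515) and miR-192-5p at 0.93 (adjusted p = 0.00747), while miR-194-5p, miR-101b-3p and miR-22-3p no longer passed (adjusted p = 0.188, 0.169 and 0.214). Between the irradiated groups, miR-802-5p then differed by 0.19 in place of 1.24 and miR-192-5p by -0.30 in place of 0.32.

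Of the 16 calls against sham, those of miR-122-5p, miR-802-5p and miR-335-5p passed in every alternative in which they were tested, and the others missed in 2 or more. Calls were missed in 14 of 16 alternatives for miR-194-5p, 13 of 16 for miR-101b-3p, 12 of 16 for miR-99a-5p, 13 of 17 for miR-22-3p and miR-99b-5p each, and 12 of 17 for miR-26a-5p.

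miR-335-5p, the miRNA of the Mest intron, also passed. It ran from 4.09 to 6.85 log2 CPM (median 5.22) in sham mice, from 5.52 to 6.83 (median 6.42) with and from 6.04 to 7.58 (median 6.67) without a month 6 sample. The log2 fold change over sham was 1.02 (adjusted p = 0.0542) and 1.48 (95% interval 1.01 to 1.95, adjusted p = 1.81e-05). It stayed called in mice without a month 6 sample in each of the 37 fits that left out 1 mouse, with log2 fold changes between 1.39 and 1.70. The difference between the irradiated groups was 0.46 (95% interval -0.11 to 1.03, adjusted p = 0.514).

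Of the miR-34 family, miR-34a-5p and miR-34c-3p passed in mice without a month 6 sample. miR-34a-5p was 7.77 ± 0.59 log2 CPM (SD, n = 16) in sham mice, 8.26 ± 0.61 (SD, n = 8) with and 8.70 ± 0.68 (SD, n = 13) without a month 6 sample, and its log2 fold changes over sham were 0.49 (adjusted p = 0.308) and 0.99 (adjusted p = 0.00592). miR-34c-3p, which with miR-34b is also made by ciliated cells, had log2 fold changes of 0.78 (adjusted p = 0.277) and 1.50 (adjusted p = 0.0049). Without mouse 1007, at 8.52 log2 CPM the highest of the 13, the latter was 0.67 (adjusted p = 0.0832). The other arm of the hairpin, miR-34c-5p, was at -0.19 and 0.04.

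The further miRNA higher than sham in mice without a month 6 sample were miR-30a-5p (0.79, adjusted p = 0.0102), miR-874-3p (0.95, adjusted p = 0.0129), miR-139-5p (0.55, adjusted p = 0.0169) and miR-22-3p (0.64, adjusted p = 0.0423). miR-139-5p was at 0.60 (adjusted p = 0.0701) in mice with a month 6 sample, and the irradiated groups differed by -0.05 (95% interval -0.41 to 0.30). The 4 lower than sham were miR-181a-5p (-0.87), miR-99a-5p (-0.92, adjusted p = 0.0371), miR-26a-5p (-0.69, adjusted p = 0.0371) and miR-99b-5p (-0.73, adjusted p = 0.0425). In the 37 fits that left out 1 mouse, miR-181a-5p stayed called in 33, miR-99a-5p in 18, miR-26a-5p in 11 and miR-99b-5p in 9, and of those higher than sham miR-22-3p stayed called in 21. In mice with a month 6 sample miR-99a-5p was also at -0.92 (adjusted p = 0.105), miR-26a-5p at -0.22 and miR-99b-5p at -0.43.

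**Figure D3:**
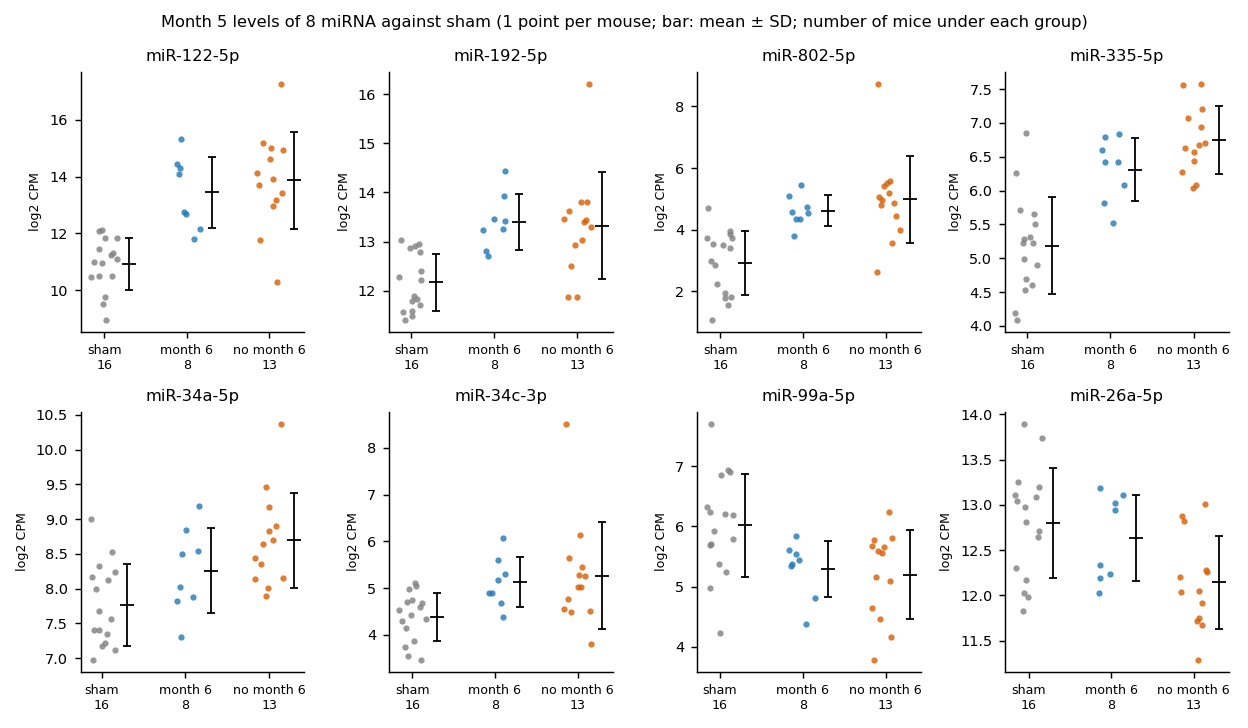
Month 5 levels in log2 CPM of 6 miRNA higher and 2 lower than sham in mice without a month 6 sample, with 1 point per mouse and the mean ± SD of each group. Mouse 1098 is the highest point of miR-122-5p (17.28), miR-192-5p (16.21), miR-802-5p (8.73) and miR-34a-5p (10.37), and mouse 1007 that of miR-34c-3p (8.52).

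The miRNA were also grouped by the tissue, family or locus they are known from. No member of any list passed the test between the irradiated groups, and the lists are described by their medians beside that of all miRNA tested, 0.03. Some miRNA stand in more than 1 list. Release by more cells and more release per cell cannot be told apart in plasma.

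All 7 liver miRNA tested had a positive log2 fold change between mice without and mice with a month 6 sample, from 0.20 to 1.26 with a median of 0.32, beside 161 positive of all 299. Without mouse 1098 only 4 of the 7 were positive, miR-192-5p and miR-194-5p were at -0.30 and -0.07, and the median was 0.08. The median was also 0.07 under the quantile normalization named in the study's methods. Against sham mice the liver median was 1.02 in mice with a month 6 sample, where 1 of 7 was called (1 of 299 over all miRNA, 0.334%). In these mice 6 of 7 were above sham, while miR-148a-3p, the member at 1.26 between the irradiated groups, was at -1.06. The median was 1.31 in mice without a month 6 sample, where 5 of 7 were called (16 of 299, 5.35%). The medians of all miRNA were -0.04 and -0.01. Of these 5 calls, miR-194-5p and miR-101b-3p were lost without mouse 1098.

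All 5 muscle miRNA tested were also positive between the irradiated groups, with a median of 1.43. miR-133a-3p ran from 4.50 to 9.25 log2 CPM (median 7.98) with and from 7.32 to 10.81 (median 8.75) without a month 6 sample, and from 4.66 to 10.33 (median 8.26) in sham mice. Its log2 fold change between the irradiated groups was 1.43 (95% interval 0.10 to 2.76), and the sham range covered most mice of both groups. Against sham mice the muscle list had a median of -0.76 in mice with and 0.44 in mice without a month 6 sample, with 0 of 5 called in either.

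The 7 lymphocyte miRNA tested were all negative between the irradiated groups, with a median of -0.45 that lay between -0.58 and -0.35 when 1 mouse was left out at a time. Against sham mice their median was 0.14 in mice with a month 6 sample, with 4 of 7 positive. In mice without one it was -0.05, with 3 of 7 positive, but the members were spread around it. They ran from -0.88 for miR-29b-3p to 0.36 for miR-342-3p, and 4 of 7 had an unadjusted p under 0.05 in edgeR. Of the 7, 1 was called lower, miR-181a-5p at -0.87, beside 4 of 299 over all miRNA (1.34%). The 10 red cell miRNA were also all negative between the irradiated groups, with a median of -0.17 that was -0.03 without mouse 1029. They were above sham in both irradiated groups, with medians of 0.49 and 0.20 and 0 of 10 called, and the part of red cell RNA in the differences against sham was not tested. The 9 myeloid and platelet miRNA had 3 positive and 6 negative values and a median of -0.13.

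The 12 miRNA tested from the imprinted Dlk1-Dio3 cluster, which are made from 1 maternally expressed locus, were all positive between the irradiated groups, with a median of 0.40. They were all below sham in both groups, with medians of -0.80 in mice with and -0.35 in mice without a month 6 sample. miR-154-5p and miR-136-5p had the smallest p of this cluster against sham among mice with a month 6 sample, at -1.45 and -0.89 (adjusted p = 0.0817 for each). The let-7 family had a median of -0.43 between the irradiated groups, with 6 of 10 negative, and the miR-99 and miR-125 families 0.19, or 0.02 without mouse 1029.

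The kidney and gut list had 6 of 8 negative values and a median of -0.24, the miR-17 and miR-106 clusters 10 of 16 and -0.09, and the neural list 4 of 6 and -0.16. Without mouse 1029 the medians were -0.0022 for the clusters and -0.06 for the neural list. The p53 and miR-34 list had 4 of 5 positive values and a median of 0.50, which was 0.16 under quantile normalization and 0.03 without mouse 1007.

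The 3 pancreatic miRNA tested, miR-217-5p, miR-216a-5p and the islet miRNA miR-375-3p, were all negative between the irradiated groups, with a median of -0.77. They were above sham in both irradiated groups, with medians of 1.68 in mice with and 0.78 in mice without a month 6 sample and 0 of 3 called in either. miR-217-5p had no read in 7 of 16 sham mice and in 1 of the 8 mice with a month 6 sample, so its value is close to the limit of detection.

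The epithelial list, which includes the miR-200 family and ciliated cell miRNA, had 11 of 14 positive values and a median of 0.30, and the list of stromal and fibrosis-related miRNA 11 of 16 and 0.10, or 0.03 without mouse 1024. The study took up 9 miRNA in its survival models, which were chosen on these mice among others and are therefore not independent evidence. It compared survival by their levels at days 2 and 5, not at month 5. In C57Bl/6 mice it linked reduced survival to high miR-34a-5p, miR-34b-3p and miR-802-5p, and to low miR-122-5p and miR-199a-5p. Of the 9, 0 passed between the irradiated groups and 8 were positive, miR-122-5p (0.88) and miR-199a-5p included, beside 161 of all 299. The log2 fold changes of the 9 ran from -0.50 for miR-150-5p to 1.24 for miR-802-5p. miR-34b-3p was at 0.56, miR-96-5p at 0.35, miR-100-5p at 1.12, miR-199a-5p at 0.53 and miR-199b-5p at 0.25, each with a 95% interval that includes 0. miR-34b-3p was at 0.03 without mouse 1007, miR-96-5p at 0.08 without mouse 1008 and miR-199b-5p at 0.09 without mouse 1029, and miR-802-5p at 0.19 and miR-34a-5p at 0.26 without mouse 1098.

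**Figure D4:**
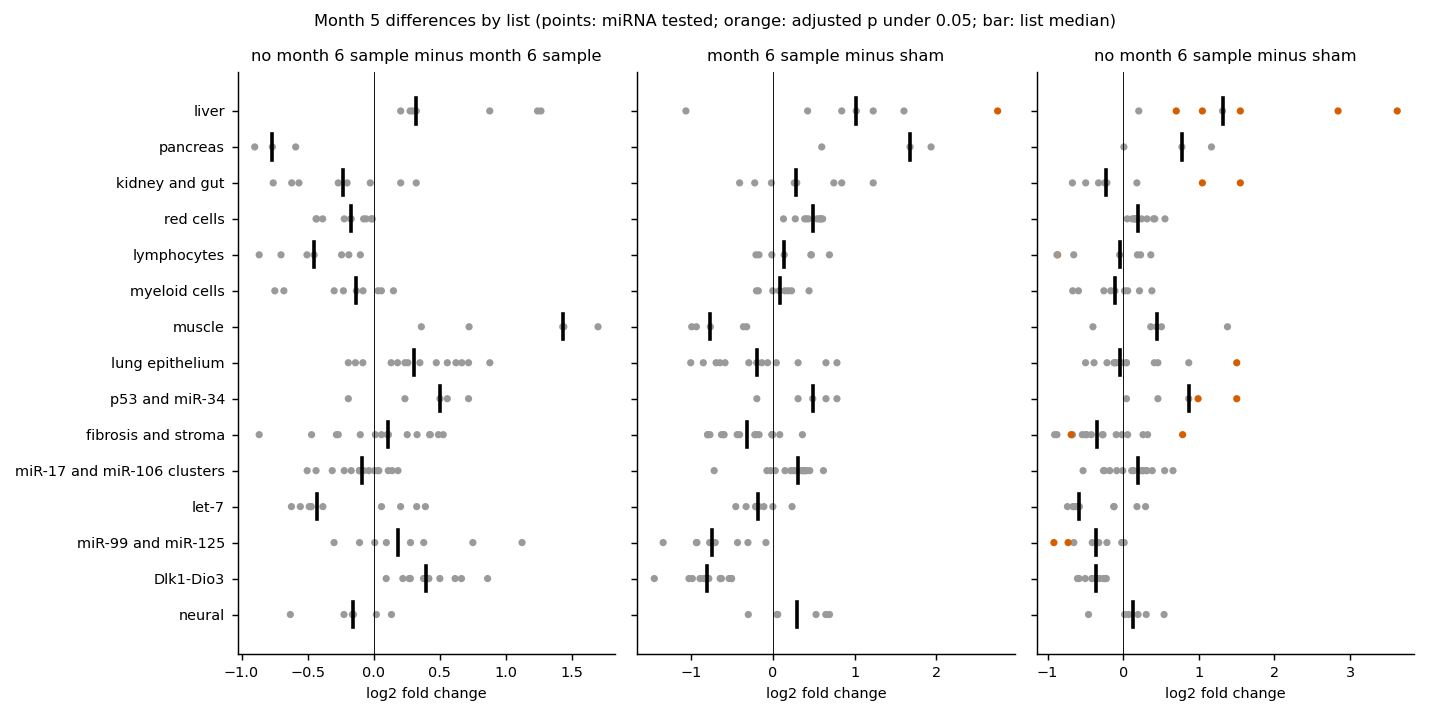
Month 5 log2 fold changes of the miRNA tested in each of 15 lists, for irradiated mice without minus with a month 6 sample, and for each irradiated group minus the same 16 sham mice, with the list median as a bar. No point of the left panel passed an adjusted p of 0.05, and the liver list lies furthest above sham in the group without a month 6 sample, with 5 of 7 members called beside 16 of all 299 (5.35%). Without mouse 1098, 2 of these 5 calls were lost.

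The same mice were then followed back through their earlier samples, to ask whether they differed before month 5. Between the mice later with and without a month 6 sample no miRNA passed at month 4 (0 of 315, 0%), month 3 (0 of 326, 0%), month 2 (0 of 315, 0%), month 1 (0 of 280, 0%) or before irradiation (0 of 302, 0%) in edgeR. At an unadjusted p under 0.05 there were 8 (2.54%), 15 (4.6%), 7 (2.22%), 25 (8.93%) and 4 (1.32%) miRNA. limma-voom also called 0 at each of these times. The irradiated mice that had no sample at month 5 were fitted as a group of their own.

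Levels over time were normalized over all these samples at once and so differ slightly from those of month 5 alone. miR-122-5p lay above the sham mean at each time from month 2 on in both groups. In the mice with a month 6 sample it was at 11.84 ± 0.62 log2 CPM (SD, n = 8) at month 1, 12.84 ± 1.11 at month 3, 12.54 ± 1.87 at month 4 and 13.38 ± 1.28 at month 5. In the mice without one it was at 11.61 ± 0.61 (SD, n = 13), 12.87 ± 0.96, 13.98 ± 1.33 and 13.84 ± 1.72 at the same times. The log2 fold change between them at month 4 was 0.67 (adjusted p = 0.991).

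miR-335-5p in the 13 mice was at 6.36 ± 0.53 log2 CPM (SD) at month 1 and 6.71 ± 0.48 at month 5, while sham mice went from 5.95 ± 0.88 (SD, n = 16) to 5.18 ± 0.71. miR-34a-5p had a higher mean at month 5 than before irradiation in all 3 groups. It went from 6.38 ± 0.35 before irradiation to 7.76 ± 0.59 at month 5 in sham mice (SD, n = 16) and from 6.06 ± 0.44 (SD, n = 10) to 8.66 ± 0.72 (SD, n = 13) in the mice without a month 6 sample. miR-365-3p, the miRNA with the smallest p at month 5, had fitted log2 fold changes between the irradiated groups of 0.73 at month 2 (edgeR p = 0.052), 1.09 at month 3 (edgeR p = 0.043) and -0.02 at month 4, all with an adjusted p of at least 0.835. From month 4 to month 5 it changed within mice by -0.91 ± 1.05 (SD, n = 8) in those with a month 6 sample, where 6 of 8 fell. The change was -0.10 ± 1.38 (SD, n = 13) in those without and -0.12 ± 1.36 (SD, n = 16) in sham mice. The fitted difference in change between the irradiated groups was 0.90 (SE 0.55, limma p = 0.113, adjusted p = 0.831).

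**Figure D5:**
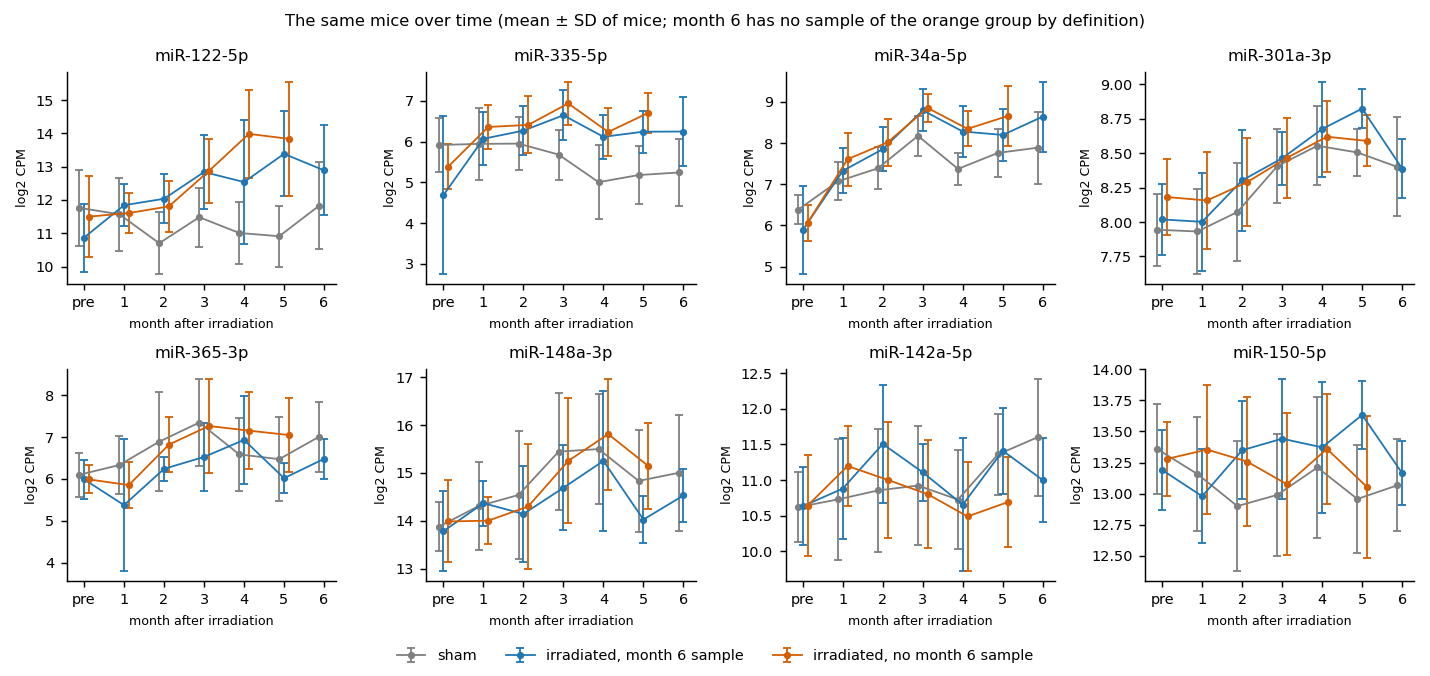
Mean ± SD of the level in log2 CPM before irradiation (pre) and at months 1 to 6 for 8 miRNA in the 3 groups of mice followed at month 5. The means of miR-122-5p, miR-335-5p and miR-34a-5p lie above sham in both irradiated groups at month 5, and mice without a month 6 sample end at month 5.

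None of 338 miRNA passed the test of a different change from month 4 to month 5 between the irradiated groups (0 called, 0%). This was limma-voom with the mouse as a block, with 20 at an unadjusted p under 0.05 (5.92%). The standard errors were wide for several miRNA, so that large differences in change could have been missed. For the muscle miRNA miR-1a-1-5p the difference in change was 3.37 (SE 1.05, limma p = 0.00252, adjusted p = 0.784). Part of it was a month 4 difference of the opposite sign. Mice without minus mice with a month 6 sample stood at -2.01 at month 4 (edgeR p = 0.00931, adjusted p = 0.991) and at 1.70 at month 5. miR-1a-1-5p rose in 9 of 13 mice without and in 2 of 8 mice with a month 6 sample, and in 2 of 16 sham mice. It had no reads in 3 of the 8 at month 5. For miR-133a-3p the difference in change was 2.38 (SE 0.98, adjusted p = 0.784), from -0.83 at month 4 to 1.43 at month 5. It rose in 9 of 13 and in 2 of 8 mice, and in 9 of 16 sham mice.

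For the 8 mice with a month 6 sample the next step could be seen. The study bled live mice behind the eye and took terminal blood from the heart, and the titles do not give the route at month 6. The part of a change of route in these values was not tested. From month 5 to month 6 none of 332 miRNA passed the limma-voom test of a different change from sham (0 called, 0%), with 20 at an unadjusted p under 0.05 (6.02%). The hepatocyte miRNA miR-122-5p changed by -0.49 ± 0.56 (SD, n = 8) and was lower in 7 of the 8 mice, while sham mice changed by 0.92 ± 1.28 (SD, n = 16). The fitted difference was -1.34 (SE 0.45, limma p = 0.00569, adjusted p = 0.763). At month 6 it was 12.89 ± 1.35 log2 CPM (SD, n = 8) in these mice and 11.83 ± 1.31 (SD, n = 16) in sham mice. miR-301a-3p changed by -0.44 ± 0.27 (SD, n = 8) and was lower in all 8 mice, to 8.39 ± 0.21, beside sham mice at 8.40 ± 0.36 (SD, n = 16). The difference from the change in sham mice was -0.26 (SE 0.20, adjusted p = 0.824). miR-150-5p was lower in 7 of the 8 mice, and its difference from sham was -0.50 (SE 0.22, adjusted p = 0.763).

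The size of the departure from sham was also compared as a whole. The root mean square log2 distance from the sham mean over miRNA with a mean level of at least 6 log2 CPM was 0.73 ± 0.18 (SD, n = 8) with and 0.70 ± 0.26 (SD, n = 13) without a month 6 sample, and 0.60 ± 0.19 (SD, n = 16) for the sham mice themselves. The difference of -0.03 between the irradiated groups had p = 0.765 in a two-sided exact permutation test and 0.889 after adjustment. The number of miRNA with at least 1 read was 424 ± 51.2 (SD, n = 8) and 442 ± 41.1 (SD, n = 13), with an adjusted p of 0.889 in the same exact test.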

How the data were processed

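Plasma small RNA libraries of the 37 month 5 C57Bl/6 samples, and of the same mice at other times, were analysed. The authors trimmed reads, aligned them to mouse miRNA (mm10, per the labels) with BaseSpace and deposited raw read counts per mature miRNA. Whether molecular identifiers were used is not given in the sources used here, so reads may not be independent molecules; intervals and tests rest on the spread between mice. No 2 month 5 libraries were identical.

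Counts were fitted with edgeR 4.0.16 in R 4.3.3 (filterByExpr, 299 of 1915 miRNA kept holding 99.96% of reads, TMM factors 0.537 to 1.32, 34 residual degrees of freedom), with Benjamini-Hochberg adjustment over all miRNA tested. Log2 CPM used a prior count of 2. Changes within mice were fitted with limma 3.58.1 (voom, mouse as block). DESeq2 1.42.0 was an alternative. Mice are biological replicates. Mouse numbers pair samples of 1 animal: for 37 mice the mean correlation of month 4 and month 5 deviations was 0.104, against -0.00174 between mice. For only 3 of the 37 the best match was their own sample, and the correlation within mice in the limma-voom block fit was 0.055. The counts thus show the identity of a mouse only weakly, which limits the changes within mice. Named miRNA were the 8 with the smallest p per direction, the 2 with the smallest p per list, the study's survival model miRNA and red cell miRNA, plus those called against sham. Some values of other list members were added after they were seen. Members and lists were chosen with earlier results of these data known. Fits were tested on simulated data. RefSeq held 253 of the 299 mature names. Host genes are those of GENCODE vM21.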

Additional observations from a re-analysis of the deposited data

Results flagged for a closer look

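In the group of 8 mice with a month 6 sample, 50 sets of values (45 named miRNA and 5 library measures) were screened for a value far from the others, and 2 were found. By chance about 1 in 20 such groups would be. miR-181a-5p was 6.165 log2 CPM in mouse 1009, below the next lowest of the 8 at 7.55. miR-199a-5p was at 0.3032 log2 CPM in mouse 1029, which had no read of it, and the next lowest mouse was at 3.88. No named miRNA moved from month 4 to month 5 in one direction in all 8 mice and in the other direction in all 13.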

How the results depend on the processing

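The comparison of the irradiated groups at month 5 gave 0 called miRNA in all 17 alternatives that changed the processing, the covariates or the mice used. It also gave 0 in each of the 37 fits without 1 mouse. The smallest adjusted p ran from 0.149 to 0.620 in those 37 fits. In the 17 alternatives it ran from 0.0692 in subset B only to 0.997 in subset A only, and was 0.0784 without a filter. At the earlier times and for the changes within mice the number called was also 0 in the alternatives run. Of the 45 named miRNA, 40 kept their direction in every alternative. These fits reuse the same mice, and many of the named were chosen for a small p in this contrast, so the count is not independent evidence. With the mouse as a replicate block (limma-voom) 0 of 399 miRNA were called between the irradiated groups. Against sham the block gave 11 calls in mice with and 13 in mice without a month 6 sample. The fits without 1 sham mouse, the interaction of sex and follow-up (0 of 299 called, 13 at an unadjusted p under 0.05) and limma-voom at other times were chosen after seeing the data.

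Counts of calls against sham moved. In mice with a month 6 sample (1 call) they were 4 with DESeq2's size factors, 10 with quantile normalization, 25 with DESeq2, 11 with limma-voom, 39 without a filter, 10 with all samples in the fit, 3 with only the groups compared, 2 with sex, 6 with bleeding subset and 6 with both as covariates, 10 without the mice lacking an early sample, 3 in males, 0 in females, 0 in subset A and 13 in subset B. In mice without a month 6 sample (16 calls) they were 9 with quantile normalization, 8 with limma-voom, 49 without a filter, 8 at a mean of at least 100 CPM, 9 with only the groups compared, 10 with bleeding subset and 10 with both covariates, 6 without the mice lacking an early sample, 6 in males, 10 in females, 3 in subset A and 5 in subset B. Fits within a sex or subset use fewer mice. Without 1 mouse the counts ran from 1 to 9 and from 10 to 21. The former was 8 without mouse 1002, 1009 or 1099, 7 without 1004 or 1013, 6 without 1010, 1022 or 1098, 5 without 1025, 1026, 1027, 1038, 1039 or 1046, 9 without 1028, 4 without 1029 or 1047, and 2 without 1040 or 1045. The latter was 10 without 1003, 1005, 1011, 1014, 1040 or 1098. The cause was not tested.

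Between the irradiated groups, some values changed sign. miR-141-3p was -0.0721 in females. miR-34c-3p was -0.13 with DESeq2, -0.0665 in females, -0.18 in subset B and between -0.11 (without mouse 1007) and 0.94 without 1 mouse. miR-9-3p was 0.45 in subset A, against -0.63. Of the miRNA called against sham, miR-192-5p was -0.30 and miR-194-5p -0.07 without mouse 1098. miR-451a was 0.26 in females and between -0.34 and 0.0515 without 1 mouse, above 0 without mouse 1010, 1019 or 1029. miR-23a-3p was -0.00877 with all samples, -0.0156 with sex, -0.00823 with subset, -0.0258 with both, -0.209 in females and between -0.0521 and 0.0708 without 1 mouse. The log2 total count differed by 0.0603 without the mice lacking an early sample.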
